A study of Bos taurus with 18 samples.

Results

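Sperm DNA carries methyl groups on most of its CpG dinucleotides, and the unmethylated part of the sperm genome lies mainly in CpG-dense stretches such as promoters. Stretches with few CpGs are usually methylated. In other cell types, CpG-poor stretches of intermediate methylation are known from regulatory elements and from loci where the alleles or the cells of a sample differ, and bisulfite sequencing averages over those alleles and cells. The CpG-poor tiles with low methylation described here are among the exceptions to the methylated state in the CpG-poor stretches of bull sperm.

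Methylation was measured by whole-genome bisulfite sequencing in sperm of 18 adult Holstein bulls, 1 library each, as the share of reads, in percent, that still show a cytosine after conversion. Each listed position is 1 cytosine, so a CpG can give a position on each strand. Members were chosen by the measured level itself. The autosomes of the UMD 3.1 genome were divided into tiles of 2000 bp, and a CpG-poor tile had 4 to 30 distinct listed positions over all bulls and a listed position in 9 or more bulls. A member had a mean over bulls above 20% and at most 50%. Of 1250000 autosomal tiles with a listed position, 659408 were CpG-poor by this rule and 26283 (3.99% of them) were members. The other CpG-poor tiles numbered 5092 with a mean of at most 20%, 98705 between 50% and 80%, and 529328 above 80%. Since the level chose the members, their low mean is a description and no finding.

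The bulls carried labels of high or low for 5 traits, and some bulls are in the groups of more than 1 trait. The study formed its groups by predicted transmitting ability for all of these but sire conception rate, which it does not name. For gestation length (GL) the high group is H03, H09, L03 and L05 and the low group is H02, H05, L01 and L07. Sire calving ease (SCE) compares H03, H07 and L02 with H01, H06 and L09, and body depth (BDE) compares H02, L03 and L08 with H05, H09 and L02. Cow conception rate (CCR) compares H08, H09 and L06 with H06, L08 and L09, and sire conception rate (SCR) compares H01, H02 and H03 with L01, L02 and L03, the high bulls named first each time. Bulls H04 and L04 carried no group and entered only the description. The semen was collected for artificial insemination, frozen, thawed and washed, and no step that separates sperm from other cells is described. A check against sperm marker promoters was not made here because gene positions of UMD 3.1 were not used beyond a short gene list. The bulls listed between 2858992 and 22048556 positions, with a median of 10109730. Coverage was listed for 6 bulls only, so the depth behind the values of the other 12 is unknown, beyond the minimum of 10 reads for a listed position.

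The members held few listed positions, with a median of 18 and quartiles of 13 and 23, against a median of 20 in CpG-poor tiles above 80%. The number of listed positions is not the number of CpGs in the genome. In members, 75.1% of the positions had the partner cytosine of the same CpG listed as well, compared with 84.6% in CpG-poor tiles above 80% and 84.2% in tiles with more than 30 listed positions. The share was 79.7% in tiles between 50% and 80% and 69.7% at or below 20%, so it was lower the lower the tile mean. A level between 20% and 50% was not particular to low position numbers. It was found in 6.25% of tiles with 4 to 10 positions, 4.26% with 11 to 20, 3.22% with 21 to 30 and 3.70% with 31 to 60, and in 8.27% of tiles with 61 or more. A level of at most 20% was found in 11.1% of the densest group but in 1.25% of tiles with 4 to 10 positions. Tiles with few positions therefore reached intermediate levels far more often than unmethylated ones.

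At the limits of the rule the members joined the other tiles without a gap. The member nearest to 20% lies at chr10:23816001-23818000 with a mean of 20.0028% and bulls from 10% to 35.6%, and the nearest tile outside lies at chr21:13782001-13784000 with 19.9981%, where bulls ranged from 0% to 60.6%. At the upper limit, the member at chr9:74094001-74096000 had a mean of 49.999% and bulls from 0% to 100%, and chr24:15438001-15440000, just outside, had 50.0019%. Its lowest bull was at 33.7% and its highest at 64.3%. The tiles on either side of a limit overlapped widely in their values per bull.

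The low mean of a tile could come from positions that are each intermediate, or from a mixture of unmethylated and methylated positions. Most member positions were intermediate, but most members also held positions outside that range. Among 301165 member positions listed in at least 3 bulls, 72.0% had a mean over bulls between 20% and 80%. A further 23.5% were at or below 20%, and 4.50% were at or above 80%. The median position mean was 34.9%. In the CpG-poor tiles between 50% and 80%, 51.9% of positions were intermediate and 43.1% at or above 80%. The classes were cut on the tile mean, which had a median of 38.3% in members and 71.4% in those tiles. The latter lies nearer to the limit of 80%, so part of the contrast follows from the rule. In tiles above 80%, 7.62% of positions were intermediate. Counted by tile, 22377 members (85.2%) had an intermediate mean at 50% or more of their positions, 4994 (19%) at every one, and 541 (2.06%) at none.

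**Figure D1:**
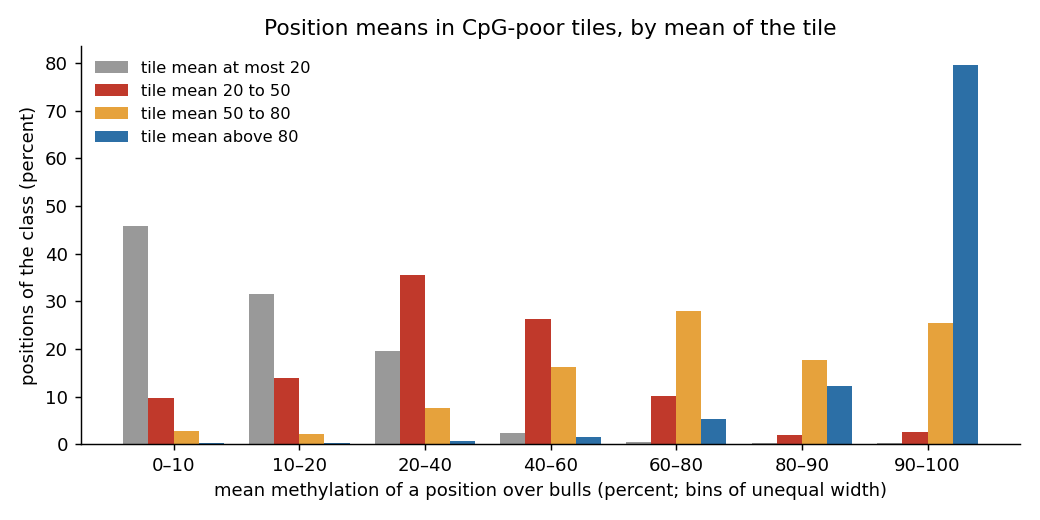
Mean methylation of single positions over bulls (x axis, percent, in 7 bins of unequal width) as a share of the positions in each class of CpG-poor tiles (y axis, percent). Bars stand for the classes of tile mean in percent, and the members (20 to 50) peak in the bins from 20 to 60, with 4.50% of positions at or above 80.

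Intermediate values were also found within single bulls. The share of member positions between 20% and 80% in a bull ranged from 53.6% in L06 to 65.1% in H06. Positions without any methylated read made up 6.87% in H04 to 11.3% in L06. A single library thus showed intermediate levels at more than 50% of the positions in every bull. Semen holds many cells, and these values cannot tell cells that differ by allele from cells that differ in another way.

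Neighbouring cytosines in a member resembled each other more the closer they lay. The cytosines on opposite strands of the same CpG differed by a median of 5.52 points over 69929 pairs, and 4.52% of the pairs differed by more than 20 points. Adjacent listed positions less than 50 bp apart differed by a median of 11.6 points. The difference was 14.4 points from 50 to under 200 bp, 16.9 points from 200 to under 1000 bp and 21.1 points from 1000 bp. Within a member the positions had a median SD of 16.6 points, compared with 19.8 points in tiles between 50% and 80% and 5.82 points above 80%. In members the strands of a CpG were thus alike, and positions differed more the farther apart they lay, pooled over tiles. This was not particular to members. Between 50% and 80% the strands differed by a median of 5.08 points. Adjacent positions there differed by 10.4 points under 50 bp and by 21.6 points from 1000 bp. Above 80% the same medians were 2.95, 3.08 and 4.47 points.

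The tile value varied more between bulls in members than in CpG-poor tiles above 80%. The classes were cut on the mean, and a percent from few reads varies less near the ends of its scale. The part of this in the order of the classes was not tested. In members the SD between bulls of the tile value had a median of 13.9 points with quartiles of 10.9 and 17.9. It was 15.6 points in tiles between 50% and 80%, 7.60 points at or below 20% and 5.54 points above 80%. Many bulls list different positions of a tile, with a median of 2 positions per listed member in H01, H09 and L08 and of 8 in H05 and L06. When each value was taken relative to the mean of its own positions, the median SD was 9.20 points in members, 9.55 between 50% and 80%, 5.49 at or below 20% and 4.38 above 80%. The spread was smaller on this measure, and the order of the classes was the same. The position mean includes the bull's own value, so part of the fall is built in where few bulls list a position.

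The bulls had different levels over the members as a whole. The mean over members was lowest in L06 (30.3%), had a median of 37.0% over the 18 bulls, and was highest in H04 (42.6%), with an SD of 3.43 points. Relative to the means of the same positions, L06 was lower by a mean of -6.14 points and H05 by -3.81 points. Bulls H04, L03, L02, H06 and H08 were higher by 4.94, 4.67, 4.59, 4.07 and 3.76 points. The remaining bulls lay between -1.94 points in H02 and 1.28 points in H03. L06 stood apart at the low end, 5 bulls formed the high end, and the gap between these and the next bull exceeded 2 points.

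L06 lay below the mean of its positions in 21375 of the 25753 members where it could be compared (83.0%), and H05 in 75.3% of its members. H06 lay above it in 72.8%, H04 in 72.0%, L02 in 68.7%, H08 in 68.2% and L03 in 67.1%. L06 was also the lowest bull in each of the other classes, and the same 5 bulls were the highest in tiles between 50% and 80% and at or below 20%. Above 80%, L02 was not among them. In tiles between 50% and 80% the deviation was -6.52 points in L06 and 3.57 points in L03, and above 80% it was -1.92 and 1.10 points. The SD of the deviations over bulls was 3.07 points in members, 2.68 points without L06, 2.56 points between 50% and 80%, 1.34 points at or below 20% and 0.736 points above 80%. The low bulls L06 and H05 listed 18402246 and 16641749 positions. Among the high bulls H08 listed 22048556, H06 13499454, H04 11977528, L02 8827498 and L03 5914519. The part of depth in the shifts was not tested.

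**Figure D2:**
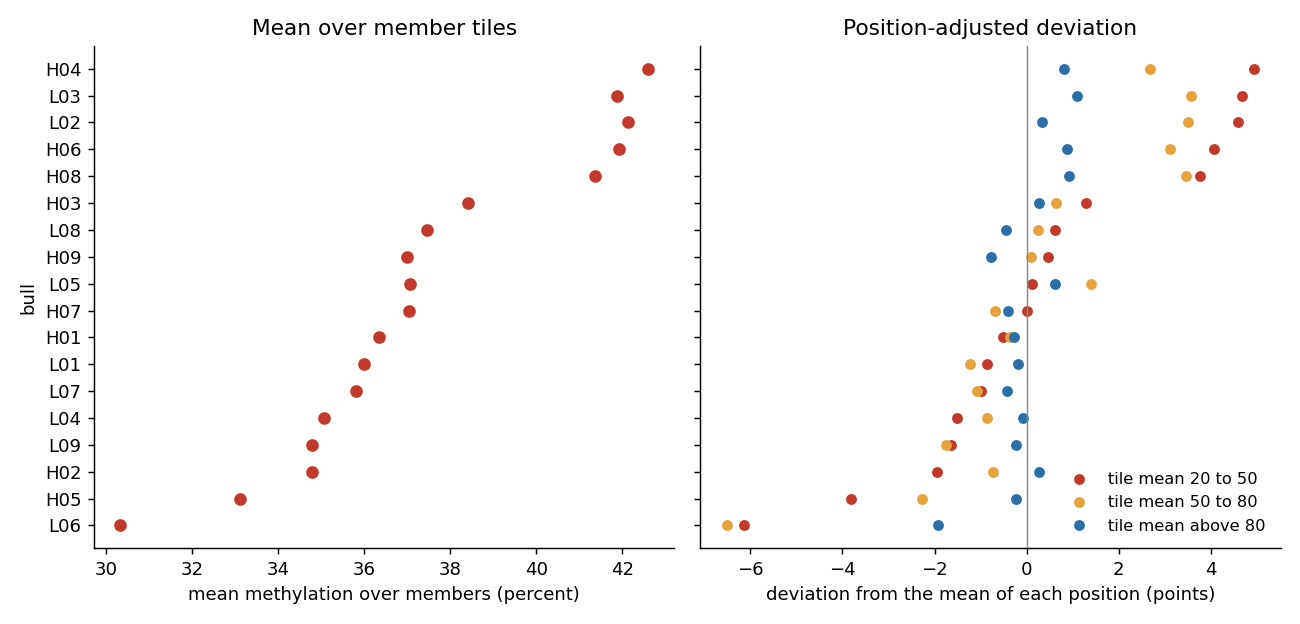
Left, mean methylation over the members (x axis, percent) in each of the 18 bulls (y axis, ordered by the right panel). Right, mean deviation from the mean of each position (x axis, percentage points) in members and in CpG-poor tiles of 50 to 80% and above 80%, where L06 is lowest in all of them.

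Across members the bulls had only a loose order in common, which the narrow range of the rule limits in advance. Over the 3546 members listed in all 18 bulls, the correlation of 2 bulls across tiles had a median of r = 0.284 over 153 pairs, with a lowest value of 0.123 and a highest of 0.503. At the same listed positions r was higher, but single positions are not held to the range of the rule. The 2 sets of correlations therefore cannot be compared for likeness. Over 12322 to 130391 member positions shared by a pair of bulls, r had a median of 0.680 and ranged from 0.622 to 0.737. Pairs with L06 had a median of 0.658 and the other pairs 0.682. Tiles and positions share libraries and depth, and these correlations are descriptions across the genome.

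The 6 bulls with listed coverage had more reads at member positions. Mean coverage ranged from 13.2 to 14.0 reads in members, from 11.7 to 12.3 in tiles between 50% and 80%, from 11.3 to 12.1 above 80% and from 14.6 to 16.7 at or below 20%. Positions with 50 or more reads made up 0.970% to 2.16% of member positions in a bull, but at most 0.00704% above 80%. The excess was confined to few tiles, since 563 members (2.14%) had a mean coverage of 20 or more. These had a median mean of 34.6% and a median SD between bulls of 8.04 points, compared with 14.0 points in the other members. The median tile coverage was 11.6 reads in members and in tiles above 80%. The part of this depth in the levels was not tested.

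Among the 376 members that are listed in all 18 bulls and have at least 4 positions listed in all of them, the median SD was 7.05 points. The 4 with the smallest SD were nearly alike in all bulls. At chr29:5702001-5704000 the lowest bull was at 20.8%, the median at 23.9% and the highest at 31.5%, with an SD of 2.63 points and a mean listed coverage of 23.7 reads. At chr28:38880001-38882000 the bulls ranged from 14.8% to 25.8% around a median of 20.5%, and listed coverage was 52.0 reads. This was the deepest of the tiles described one by one. The tile chr17:25076001-25078000, in which all 22 positions were listed in all 18 bulls, ranged from 14.3% to 25.2% with a median of 21.7% and a coverage of 31.7 reads. In chr16:7092001-7094000 the bulls lay between 21.9% and 33.2% with a median of 26.1% and 23.6 reads. All 4 stable members were close to the lower limit of the rule, and deeper than the median member. The choice required positions listed in all 18 bulls, which favours deep tiles. A low percent from many reads also varies less by sampling, and the part of this in the small SDs was not tested.

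The 4 members with the largest SD differed in how far it fell relative to the position means. At chr14:1030001-1032000 the lowest bull was at 23.4%, the median at 41.8% and the highest at 86.0%, with an SD of 19.1 points, or 17.7 points relative to the position means. At chr29:6582001-6584000 bulls ranged from 11.6% to 69.3% with a median of 41.4%, and the SD of 18.01 points became 11.9 points. In these members the bulls differed at the same positions. At chr29:6582001-6584000, however, the highest bulls L05 (69.3%), H05 (66.3%), H03 (61.9%) and L09 (61.6%) listed 8 to 11 positions. They lay between -4.06 and 2.27 points from the means of their positions. The other bulls apart from H07 listed 4 or 5, so the top of the range there went with the listed positions as well. In chr5:94544001-94546000 the bulls ranged from 10.9% to 71.2% with a median of 50.6%, but the SD of 17.8 points fell to 2.26 points relative to the position means. In chr2:94732001-94734000 they ranged from 5.53% to 56.8% with a median of 31.4%, and the SD went from 16.2 to 1.99 points. Here the bulls listed different positions of a tile whose positions differ from each other. The variable members had a mean listed coverage of 25.9, 45.7, 31.1 and 24.2 reads, in the order given, so they were as deep as the stable ones.

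**Figure D3:**
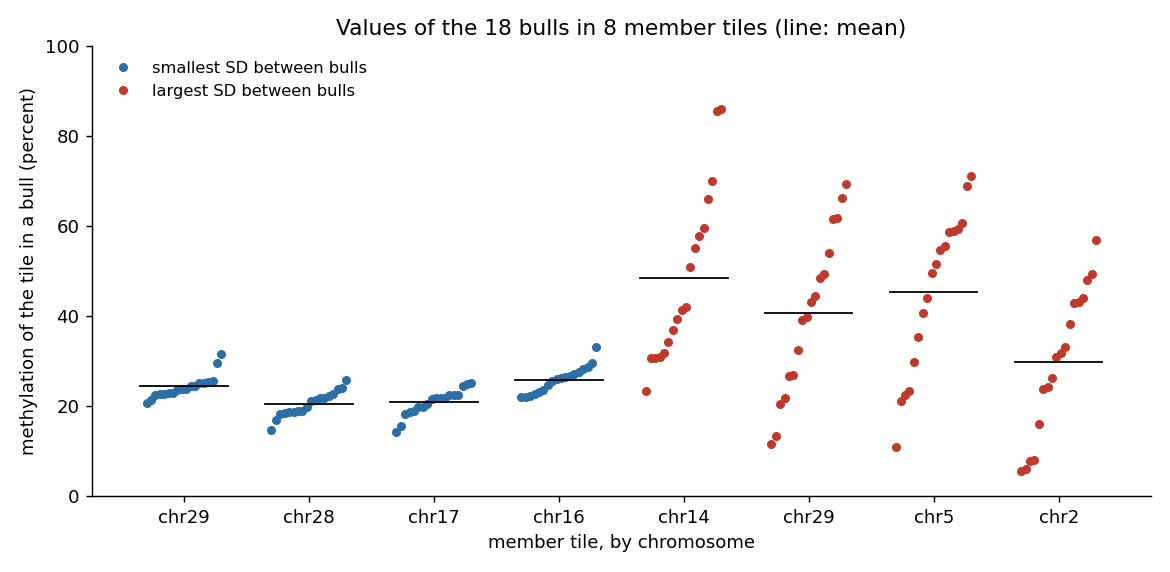
Methylation of the tile (y axis, percent) in each of the 18 bulls (points, sorted) for the 4 members with the smallest and the 4 with the largest SD between bulls (x axis, by chromosome; black line, mean). The stable tiles lie between 14.3% and 33.2%, and the variable ones span from 5.53% to 86.0%.

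Members lay next to each other. A neighbouring tile with a mean between 20% and 50%, whatever its number of positions, was found beside 17828 members (67.8%) and beside 28928 of the other 633125 CpG-poor tiles (4.57%). Both neighbours were in that range for 6449 members (24.5%). A transition between an unmethylated and a methylated tile was rare, since 759 members (2.89%) lay between a tile of at most 20% and a tile above 80%. A position between methylated tiles was as rare, with 789 members (3.00%) between tiles above 80%. Single members numbered 11111 (42.3%), and 8924 members (34.0%) stood in 2330 runs of 3 or more adjacent members.

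The low level reached beyond the tile. Tiles next to a member had a median of 44.0%, tiles at 10 kb 68.9% and tiles at 100 kb 82.3%. Around other CpG-poor tiles, of which every 20th was taken, the medians were 91.8%, 91.8% and 91.7% at the same distances. At 100 kb 16.4% of the tiles around members were still between 20% and 50%, and 4.14% around the others. The members were therefore found in wider surroundings of lower methylation.

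The longest runs had 11 members, or 22 kb, and there were 3 of them. The run at chr5:25434001-25456000 held 223 positions and had a mean of 37.6%, with tiles from 27.6% to 47.3%. The lowest bull there was L09 at 22.9%, the median was 36.8%, and the highest was H04 at 50.7%. The run at chr17:51528001-51550000 had a mean of 38.0% and bulls from 29.99% (L06) to 51.3% (L03) with a median of 37.5%. The run at chr21:5212001-5234000 was lower, with a mean of 29.3% and bulls from 22.3% (L09) to 38.0% (L02) around 28.9%. The tiles beyond the chr17 run had means of 15.7% and 20.8%, and those beyond the chr21 run 16.6% and 18.3%. Both of these runs thus continued into tiles that were still less methylated, whereas the chr5 run lay between tiles of 55.6% and 43.3%.

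Members were concentrated in a small part of the genome. Of 2529 windows of 1 Mb, 192 (7.59%) held 50% of the members, whereas 35.6% of the windows were needed for 50% of all CpG-poor tiles. The median window held 3 members and 325 windows held none. The richest window was chr29:39000001-40000000, where 166 of 419 CpG-poor tiles (39.6%) were members. The first megabase of chromosome 6 held 157 of 313 (50.2%), chr2:2000001-3000000 155 of 391 (39.6%) and chr19:1000001-2000000 151 of 296 (51.0%). On chromosome 7 the windows from 9000001 to 12000000 held 132, 135 and 126 members. In the 20 windows with the most members, the median of the CpG-poor tiles ranged from 25.7% to 64.8% and was above 50% in 9 of them.

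Many of the rich windows lay at the start of a chromosome. Of the 60 windows with the most members, which together held 25% of all, 42 (70.0%) were within the first 10 Mb of a chromosome, where 11.5% of all windows lie. Members made up 26.8% of CpG-poor tiles in the first 1 Mb, 18.3% in the second, 14.6% from 2 to 5 Mb, 7.86% from 5 to 10 Mb and 4.54% from 10 to 20 Mb. The lowest share was 2.28% from 20 to 40 Mb, and it was 2.78% beyond. The decline did not rest on a few autosomes alone, since the median of the 29 autosomes was 24.5% in the first 1 Mb, 1.84% from 20 to 40 Mb and 2.43% beyond. Autosomes varied, however, from 2.75% to 50.2% in the first 1 Mb. Toward the end of the chromosome the share was 9.06% in the last 1 Mb and 12.0% in the 1 Mb before, with medians over autosomes of 4.17% and 2.04%.

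**Figure D4:**
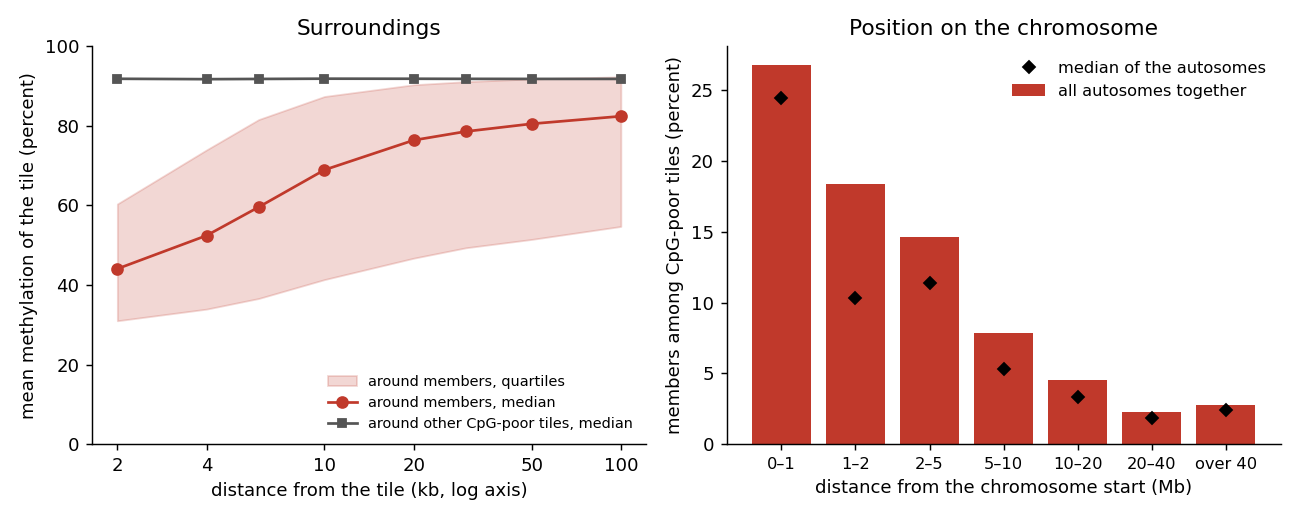
Left, median mean methylation of tiles (y axis, percent) by distance from a member (x axis, kb, log axis) with quartiles, and around every 20th other CpG-poor tile. Right, members among CpG-poor tiles (y axis, percent) by distance from the chromosome start (x axis, Mb), for all autosomes together (bars) and as the median of the 29 autosomes (diamonds), with bars at 26.8% in the first 1 Mb, 2.28% from 20 to 40 Mb and 2.78% beyond.

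Chromosomes differed in their share of members. It was 7.92% on chromosome 15, 7.72% on chromosome 19 and 7.44% on chromosome 29, and 1.84% on chromosome 20 and 2.19% on chromosome 22. Without the first 10 Mb, chromosome 29 had the highest share (7.40%), followed by chromosome 25 (6.04%) and chromosome 15 (5.90%), and chromosome 19 fell to 1.79%. The members of chromosome 19 were thus mostly near its start, and those of chromosomes 25 and 29 were not.

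Of the 25 genes that the study fine-mapped for gestation length, 20 had a CpG-poor tile inside the gene or within 2000 bp, and 3 had a member. In all, 6 of their 298 CpG-poor tiles (2.01%) were members, beside 3.99% over the autosomes. PCDHA13, a protocadherin alpha gene for cell adhesion, held 3 of them within the gene body. In chr7:53602001-53604000 the bulls ranged from 0% to 100% with a median of 29.01%, but relative to the position means the SD was 2.78 points. The SD over all positions was 40.1 points there. No position of the 3 PCDHA13 tiles was listed in all 18 bulls, and a position mean over few bulls holds much of each bull's own value. How much of the fall in SD went with the listed positions was not tested. In chr7:53606001-53608000 the median was 30% and bulls ranged from 0% to 76.7%, and in chr7:53610001-53612000 the median was 39.4% with the range from 0% to 100%. The adjusted SD was 8.66 points in the former and 3.74 points in the latter, where the SD over all positions was 40.4 points. SCRT1, a zinc finger repressor of transcription, had both of its CpG-poor tiles among the members. The tile chr14:1782001-1784000 at the gene's boundary was listed in all 18 bulls and ranged from 10.1% in L06 to 54.5% in H04 with a median of 37.5%, and its adjusted SD was 4.06 points. The tile chr14:1784001-1786000 inside the gene had a median of 54.8% and bulls from 22.5% to 80%. Its SD of 18.4 points was 9.94 points when adjusted. The remaining member, chr14:1894001-1896000 at the boundary of MROH1, had a median of 37.1% and bulls from 8.85% to 69.2%. Its SD was 19.7 points, or 8.67 points when adjusted. Exons and introns were not analysed here.

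To learn how members behave in the trait comparisons, all tiles in which every bull of a comparison lists a position were tested. Read counts were modelled by logistic regression with group as the only term, and q values were set over all tested tiles. The tested tiles, and so the shares over all tiles, include listed sequences outside the autosomes, whereas members are autosomal. A tile counted as differentially methylated (DMR) when q was under 0.01 and its groups were more than 5 percentage points apart. The rule for members used the mean over all bulls and not these differences. The model takes reads as independent and leaves the spread among bulls out. It counts 10 reads per position in all traits but SCR, also for bulls with listed coverage. Therefore DMR counts are read here beside the share called over all tiles. Where a bull is left out, that share is given for both directions together. Counts by direction then have no such share, and a turn in direction is no finding about members. The comparison was repeated at matched positions, those that 1 or more bulls list in both groups. The comparisons share bulls and are not independent.

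For GL, the mean over members was 38.4% in H03, 37.0% in H09, 41.9% in L03 and 37.1% in L05, and 34.8% in H02, 33.1% in H05, 36.0% in L01 and 35.8% in L07. The groups were at 38.6% ± 2.29 and 34.9% ± 1.32 (SD, n = 4 each), each bull over the members it lists, and did not overlap. On the members listed in all 18 bulls they overlapped, since L07 was at 37.3%, above H09 at 37.1% and L05 at 36.6%. Relative to position means the groups differed by 3.53 points. The test called 888 of 7141 tested members (12.4%), beside 8.75% of all tiles. Of these, 576 (8.07%, beside 4.99%) were higher and 312 (4.37%, beside 3.75%) lower in high-GL bulls. At matched positions 164 members were called (2.30%), beside 2.15%, with 150 higher (2.10%, beside 1.43%) and 14 lower (0.196%, beside 0.724%). The groups did not overlap in 325 members (4.55%), beside 3.3%. Limma, which estimates the spread between bulls, called 0 after adjustment with a smallest adjusted p of 0.980 in members, the F test with overdispersion called 0, and at an unadjusted p under 0.05 with the same difference limma gave 434 members (6.08%), beside 3.59%, and the F test 514 (7.20%), beside 3.47%. Without H05 the test called 679 members (9.46%, beside 8.42% of all tiles), of which 368 were higher. Without H09, when 10710 members could be tested, it called 1391 (12.99%, beside 9.12%).

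For SCE, the mean over members was 38.4% in H03, 37.0% in H07 and 42.1% in L02, and 36.3% in H01, 41.9% in H06 and 34.8% in L09. The groups overlapped, at 39.2% ± 2.63 and 37.7% ± 3.75 (SD, n = 3 each). The test called 473 of 7464 members (6.34%), beside 6.18% of all tiles, with 215 (2.88%, beside 2.64%) higher and 258 (3.46%, beside 3.54%) lower in high-SCE bulls. At matched positions 80 were called (1.07%), beside 1.31%, with 40 (0.537%) in each direction, beside 0.599% higher and 0.707% lower. The groups did not overlap in 635 members (8.51%), beside 9.26%. Limma and the F test called 0 after adjustment, and at an unadjusted p under 0.05 limma gave 240 (3.22%), beside 3.3%, and the F test 181 (2.42%), beside 2.46%. These shares were near the background. Among members the direction turned without H06, with 456 higher and 142 lower (7.94% called, beside 6.21% of all tiles, not split by direction). It also turned without H03, with 280 and 235 (6.69%, beside 6.20%), and without H07, with 246 and 232 (6.09%, beside 6.17%). Without L09 11332 members could be tested and 798 were called (7.04%, beside 6.17%), 253 higher and 545 lower.

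For BDE, the mean was 34.8% in H02, 41.9% in L03 and 37.5% in L08, and 33.1% in H05, 37.0% in H09 and 42.1% in L02. The high bulls lay within the range of the low bulls, with 38.0% ± 3.58 against 37.4% ± 4.52 (SD, n = 3 each). The test called 583 of 6589 members (8.85%), beside 7.57%, with 345 (5.24%, beside 4.71%) higher and 238 (3.61%, beside 2.86%) lower in high-BDE bulls. At matched positions 116 were called (1.76%), beside 1.59%, with 97 higher (1.47%, beside 1.02%) and 19 lower (0.289%, beside 0.567%). The groups did not overlap in 571 members (8.67%), beside 10.1%. Limma and the F test called 0 after adjustment, and at an unadjusted p under 0.05 limma gave 271 (4.11%), beside 3.84%, and the F test 206 (3.13%), beside 2.81%. Without H05 the direction turned among members, to 254 higher and 329 lower (8.82% called, beside 7.06% of all tiles, not split by direction).

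For CCR, the mean was 41.4% in H08, 37.0% in H09 and 30.3% in L06, and 41.9% in H06, 37.5% in L08 and 34.8% in L09. The high group was the most uneven of all, at 36.2% ± 5.55 against 38.1% ± 3.60 (SD, n = 3 each). The test called 809 of 6343 members (12.8%), beside 11.1% of all tiles, of which 155 (2.44%, beside 2.58%) were higher and 654 (10.3%, beside 8.48%) lower in high-CCR bulls. At matched positions 266 were called (4.20%), beside 4.37%, with 23 higher (0.363%, beside 0.808%) and 243 lower (3.83%, beside 3.57%). The groups did not overlap in 479 members (7.55%), beside 9.94%. Limma and the F test called 0 after adjustment, and at an unadjusted p under 0.05 limma gave 223 (3.52%), beside 3.61%, and the F test 204 (3.22%), beside 2.89%. Among members the direction turned without L06, when the test called 563 (8.84%, beside 8.79% of all tiles, not split by direction), 311 higher and 252 lower. Without H06, a low-CCR bull, it called 592 (9.27%, beside 8.53%), 271 higher and 321 lower. Without H08 it called 1509 (22.2%, beside 16.9%), of which 1401 were lower.

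For SCR, the mean was 36.3% in H01, 34.8% in H02 and 38.4% in H03, and 36.0% in L01, 42.1% in L02 and 41.9% in L03. The groups overlapped at 36.5% ± 1.82 and 39.998% ± 3.47 (SD, n = 3 each). All 6 bulls have listed coverage, and the listed reads were used. The test called 890 of 7505 members (11.9%), beside 8.68%, with 255 (3.40%, beside 4.13%) higher and 635 (8.46%, beside 4.54%) lower in high-SCR bulls. At matched positions, counted as 10 reads, 56 were called (0.750%), beside 1.16%, with 15 higher (0.201%, beside 0.534%) and 41 lower (0.549%, beside 0.63%). With 10 reads per position the count over all positions was 505 (6.73%), beside 6.05%. The groups did not overlap in 824 members (10.98%), beside 9.13%. Limma and the F test called 0 after adjustment, and at an unadjusted p under 0.05 limma gave 310 (4.13%), beside 3.4%, and the F test 267 (3.56%), beside 2.72%. For members the difference had a median of -2.78 points with all positions and of -2.57 points with matched ones, where the reads and the test also differ. Without H01 the test called 1292 (12.2%, beside 9.38%), and without L01 1230 (15.8%, beside 9.26%).

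In each trait the CpG-poor tiles between 50% and 80% were called more often than members, at 15.9% for GL, 9.52% for SCE, 11.6% for BDE, 17.5% for CCR and 14.9% for SCR. CpG-poor tiles above 80% were called in 5.11%, 3.61%, 3.89%, 6.04% and 5.44%. Of the members called that have matched positions (888, 470, 583, 808 and 887 in the order of the traits), 63.2% for GL, 61.1% for SCE, 60.5% for BDE, 77.8% for CCR and 69.0% for SCR were still more than 5 points apart, with the same sign, when only matched positions were used. These members were called for a large difference over all positions, so a smaller one on a second measure follows in part from the choice. Its median in them went from 17.1 to 9.06 points for GL, from 22.3 to 8.53 for SCE, from 21.4 to 8.31 for BDE, from 18.6 to 12.1 for CCR and from 18.6 to 9.37 for SCR. Over all members tested the median absolute difference went from 5.85 to 4.68 points for GL, 5.80 to 5.15 for SCE, 6.21 to 5.19 for BDE, 6.48 to 5.80 for CCR and 6.40 to 5.69 for SCR.

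**Figure D5:**
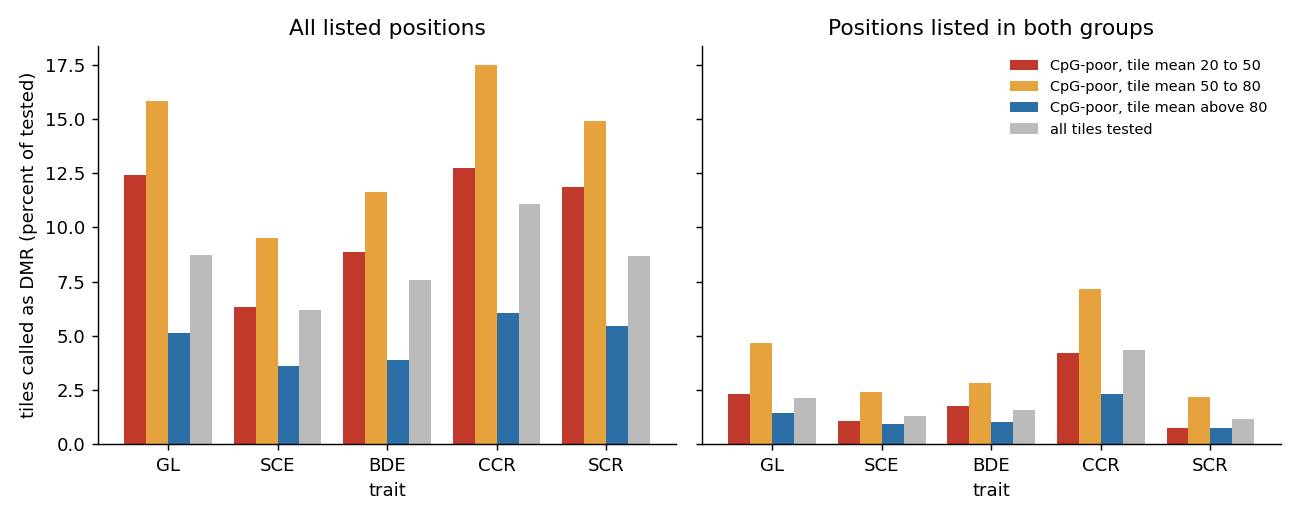
Tiles called as DMR (y axis, percent of tested tiles) for the 5 traits (x axis) over all listed positions (left) and at positions listed in both groups (right). Bars are the members, 2 other classes of CpG-poor tiles and all tiles tested, and members range from 6.34% to 12.8% on the left and from 0.750% to 4.20% on the right.

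Some called members had groups that do not overlap and large differences at matched positions. The 10 tiles named next were chosen for that difference, so they are a description with no test. In 3 of them the groups overlapped when values were taken relative to the means of their positions. For GL, chr9:2512001-2514000 was at 48.9% in H03, 90% in H09, 71.9% in L03 and 37.7% in L05, and at 24% in H02, 37.2% in H05, 27.2% in L01 and 32.0% in L07. The difference was 31.8 points at 11 matched positions, H09 listed 1 position, and the closest bulls of the groups were 37.7% and 37.2%. Relative to the means of their positions the groups overlapped, since L05 was at -12.1 points, below H05 at -5.96 and L07 at -9.43 points. In chr8:106332001-106334000 the low-GL bulls were alike at 41.8% ± 1.77 and the high-GL bulls were at 66.8% ± 15.7 (SD, n = 4 each), with 27.6 points at 6 matched positions. The highest and lowest high-GL bulls, L05 at 87.3% and H09 at 50%, listed 2 positions each there. For BDE, chr19:1420001-1422000 was at 46.7% in H02, 50% in L03 and 46.2% in L08, against 22.1% in H05, 18.2% in H09 and 18.7% in L02, with 32.7 points at 4 matched positions. H09 listed 1 position there and H02 listed 2. In chr14:286001-288000 the high-BDE bulls were at 35.6%, 29.9% and 53.4% and the low ones at 14.1%, 18.3% and 13.6%, with 33.2 points at 11 matched positions. This member had 5 to 12 listed positions in each of these 6 bulls, and H08, in neither BDE group, was at 51.3%.

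For SCE, chr24:1670001-1672000 was at 61.1% in H03, 56.4% in H07 and 59.5% in L02, and at 45.4% in H01, 37.8% in H06 and 15.5% in L09, with 40.8 points at 5 matched positions. Relative to its positions H01 was at 9.98 points, within the range of the high-SCE bulls from 7.88 to 11.01 points. The tile chr18:60728001-60730000 was at 39.4% ± 7.27 against 6.83% ± 11.8 (SD, n = 3 each), and its low bulls H01 and L09 were at 0% over 1 and 2 positions. For CCR, chr16:64156001-64158000 was at 88.8% in H08, 86.8% in H09 and 65.0% in L06, and at 35.1% in H06, 57.7% in L08 and 46.2% in L09. Its 39.4 points at 10 matched positions came mainly with H08 and H09, which lay 28.5 and 30.9 points above the means of their positions, against 10.8 points in L06. The tile chr5:74696001-74698000 was at 49.7% in H08, 29.004% in H09 and 25.2% in L06, and at 14.4% in H06, 22.0% in L08 and 18.2% in L09, with 42.3 points at 6 matched positions. L08 and L09 listed 2 and 1 positions, and relative to its positions L06 was at -4.53 points, beside -6.03 points in L08.

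For SCR, chr23:4326001-4328000 was at 0% in H01, 15% in H02 and 29.1% in H03, and at 66.4% in L01, 40% in L02 and 55% in L03, with -38.5 points at 8 matched positions. The bulls H01 and L02 listed 1 position each there. In chr10:97682001-97684000 the high-SCR bulls were at 73.2%, 44.1% and 73.1% and the low-SCR bulls all at 0%, with a difference of 59.4 points over all positions and 32.3 points at 4 matched ones. The low-SCR bulls L01, L02 and L03 listed 3, 2 and 2 positions there. Bulls outside both groups also lay far apart, with H06, H07 and L08 at 0% and H04 at 90.5%. Against the means of their positions, however, H04 (2 positions) lay only 1.86 points higher. H06, H07 and L08 lay at -7.98, -7.82 and 0 points. Relative to the means of their positions the groups overlapped, with H02 at -8.64 points and L02 at -4.40 points.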

How the data were processed

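Per the labels' processing notes, the authors checked reads with FastQC 0.11.2, trimmed them with Trim Galore 0.4.0, mapped them to UMD 3.1 with Bowtie2 and extracted methylation with Bismark 0.14.5. The authors deposited, for each of 18 bulls, the methylation in percent of every position with 10 or more reads, and for 6 bulls also the count of reads per position. Replicates were not pooled, and each library is 1 bull. Values of positions were averaged per bull and tile of 2000 bp. The design assumed listed reads only where every file of a comparison gives them, so positions counted as 10 reads except in SCR. The members, and the lists used, were chosen with earlier results of these data known.

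The position-adjusted value is the mean deviation of a bull from the mean of each of its positions over the bulls that list it, for positions listed in at least 2 bulls. That mean includes the bull itself, so positions listed by few bulls give small deviations. DMRs were called by logistic regression with a likelihood ratio test, q values by a simplified SLIM method over all tested tiles, and a difference over 5 points. Alternatives were an F test with overdispersion, limma 3.58.1 (R 4.3.3) on log2 ratios of the reads (methylated over unmethylated, 1 read added to both) with Benjamini-Hochberg adjustment, and, at matched positions, a Cochran-Mantel-Haenszel test with positions as strata. The logistic regression, the F test and limma were run on simulated reads without a spread between bulls. The Cochran-Mantel-Haenszel test was not run on simulated data. Python 3.11.15, NumPy 2.4.6, SciPy 1.17.1 and matplotlib 3.10.9 were used.

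Tiles named in the text were the 4 members with the smallest and the 4 with the largest SD among members listed in all 18 bulls with 4 or more positions listed in all of them, the 3 longest runs, up to 2 called members per trait whose groups do not overlap with the largest difference at 4 or more matched positions, members in or within 2000 bp of the 25 fine-mapped genes, and the tiles nearest to the limits. Windows of 1 Mb are named as the richest. Gene lists other than the 25 fine-mapped genes, promoters, sperm markers and base sequences were not analysed here, since no genome or full annotation of UMD 3.1 was used. Members are autosomal, so chromosome X was not described. Listed sequences outside the autosomes entered only the tests over all tiles. Intervals for single positions were not computed, as the depth is unknown for 12 bulls.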

Additional observations from a re-analysis of the deposited data

Results flagged for a closer look

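In the GL groups of 4 bulls, the values reported for members and for the named tiles were searched for a bull far from the others, over 38 groups. Chance alone would single out about 1 in 20 groups, and 1 was found. In the stable member chr17:25076001-25078000, H09 was at 24.9%, and the other 3 high-GL bulls lay between 21.6% and 21.9%. The gap made up 0.900 of the range of the group, above Dixon's critical value for 4 samples.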

How the results depend on the processing

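The number of members was 26283 and stayed within 1.5 times with tiles shifted by 1000 bp (26303), at least 8 positions, the median over bulls (26113, of which 23842 were the same tiles), at least 15 reads where coverage is listed (21713), without tiles of high coverage (25720, an alternative chosen after seeing the data) and without each bull in turn (24834 to 26823). With a listed position in all 18 bulls it was 3546. The share of intermediate positions was 72.0%, 71.4% to 72.0% without each bull, 74.3% at positions listed in 9 or more bulls, 71.2% with at least 15 reads, 72.6% with every tile counted once and 87.8% between 10% and 90%. The median SD between bulls of 13.9 points was 13.7 to 14.0 without each bull, 9.20 position-adjusted and 11.2 in members listed in all bulls. In the order GL, SCE, BDE, CCR and SCR, the members called numbered 888, 473, 583, 809 and 890. At least 3 positions per bull gave 309, 130, 250, 280 and 324 (13.6%, 6.87%, 12.9%, 14.1% and 17.2% of members tested, beside 8.77%, 6.63%, 8.15%, 11.4% and 9.33% of all tiles), matched positions 164, 80, 116, 266 and 56, and the F test and limma 0 in each. With 13 reads per position the first 4 were 1391, 843, 923 and 1238 (19.5%, 11.3%, 14.0% and 19.5%, beside 12.2%, 10.1%, 11.6% and 15.2%), and with 10 reads SCR was 505 (6.73%, beside 6.05%). Without each bull in turn they ranged from 679 to 1391 (without H09), 478 to 798 (without L09), 576 to 740, 563 to 1509 (without H08) and 827 to 1292. The shares of members were 9.46% to 13.04%, 6.09% to 7.94%, 7.37% to 10.1%, 8.84% to 22.2% and 9.97% to 15.8%, beside 7.84% to 9.12%, 6.17% to 6.80%, 6.93% to 7.79%, 8.53% to 16.9% and 8.47% to 9.38% of all tiles. More tiles are tested without H09, L09 or H01, and for the other changes the cause was not tested. No paired analysis was possible because the bulls are different animals and no label ties a bull of a high group to one of a low group. Depth limits all counts, since 10 reads give coarse percents and coverage is unknown for 12 bulls.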
